A study of Homo sapiens with 4 samples.

Results

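The proteasome genes described here are the protein-coding genes whose symbols begin with PSMA, PSMB, PSMC, PSMD, PSME, PSMF or PSMG. The Ensembl identifiers in the deposited tables were matched to symbols, and 50 rows met that rule, out of 58736 rows in all and 19951 protein-coding ones. By role, 48 encode a subunit, activator, inhibitor or assembly factor of the proteasome, and 2 carry the prefix only. The 2 are PSMC3IP, a meiotic recombination factor, and PSME3IP1, which encodes a protein that binds an activator subunit.

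RNA sequencing libraries came from the cell line HEK293A, which derives from human embryonic kidney and grows as an adherent epithelial culture, in a study of gene regulation by FEN1 guided by hairpin-forming DNA probes. FEN1 cuts the single-stranded DNA flaps that arise during replication and repair. All cells, controls included, were transfected with 1 µg of FEN1 plasmid per well and 48 h later with 500 pmol of DNA probes, and RNA was prepared after 72 h. The negative control was represented by replicates 1 and 3 and the probe NT1_hp2 by replicates 2 and 3, which leaves 2 libraries per group. Neither the target of NT1_hp2 nor the probe used on control cells is given in the labels. No label states that replicates were grown as separate cultures, and p-values here therefore measure only library-to-library spread, part of which may be technical.

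The proteasome is the large protease that degrades proteins tagged with ubiquitin. Its barrel-shaped core is built of outer alpha rings, which gate the entrance, and inner beta rings, which hold the peptidase sites. A regulatory particle caps the core: its base contains a ring of ATPases that unfold and thread the substrate, and its lid removes ubiquitin. In dividing cell lines the subunits are abundant housekeeping proteins, and their genes are known to be induced together by the transcription factor NRF1 (gene NFE2L1) when proteasome activity is impaired.

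Levels are given in FPKM, read counts divided by gene length and sequencing depth, which is the unit that the numbers in the files fit. Recovered from those values, the depth per library ranged from 12506203 reads (negative control replicate 3) to 14908687 (negative control replicate 1), with both NT1_hp2 libraries between. In a gene 1 kilobase long, 3 reads gave 0.208 to 0.239 FPKM. Mitochondrial transcripts took 5.92% to 6.06% of the control reads and 4.29% to 4.33% of the NT1_hp2 reads. In these bulk libraries, fewer cells of a type and less RNA per cell cannot be told apart. The epithelial keratin genes KRT8 and KRT18 were at 105 ± 9.09 and 73.2 ± 6.29 FPKM in the negative control (SD, n = 2), while the epithelial adhesion genes EPCAM and CDH1 stayed under 0.5 FPKM in every library. KRT18 fell to 54.9 ± 0.696 FPKM (SD, n = 2, limma-trend adjusted p = 0.0440), and the 5 epithelial markers summed to 192 to 215 FPKM in the control libraries and 160 to 162 FPKM in the NT1_hp2 libraries, whose part in the results was not tested. Summed over the 9 immune markers, the level was 1.51 to 2.21 FPKM, and PTPRC and CD3E, which define blood cells and T cells, were at 0 in all 4 libraries.

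The member mRNAs that passed the test were all lower in cells given NT1_hp2. A filter of 1 FPKM, to be met in 2 or more libraries, left 42 members, of which 9 fell, 0 rose and 33 did not pass the test. The test was limma-trend on the log2(FPKM + 1) scale, called at 0.05 after Benjamini-Hochberg adjustment over 16362 tested genes. The 9 make up 21.4% of the tested members, against a background of 8.92% of all tested genes and 10.8% of the tested protein-coding genes. Neither background was matched for level, and most members are well expressed. In a fit of the 7567 genes at 5 FPKM or more in all libraries, 18 of 38 members fell (47.4%), against 28.0% of those genes. In that fit 3 members rose (7.89%), against 15.7%. The 9 include PSMC3IP, which carries the prefix only. Of the 40 tested subunit, activator, inhibitor and assembly genes, 8 fell. The background for higher genes was 5.0% of all tested genes and 5.04% of the protein-coding ones. At an unadjusted p under 0.05, 23 members were lower and 5 higher, beside 21.2% and 15.9% of all tested genes. The median log2 difference of the members was -0.21, beside -0.01 over all tested genes and -0.03 over the tested protein-coding genes. Of the 42 tested members 0 reached a 2-fold difference. Scaling each library to the same FPKM sum moved the median of all tested genes to 0.16 and that of the members to -0.02, so any value given here under that scaling stands beside 0.16 for all genes.

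Both NT1_hp2 libraries lay below both control libraries for 30 of the 42 members (71.4%), against 34.8% of all tested genes and 40.4% of the protein-coding genes. They lay above both for 5 members (11.9%), against 32.0% and 32.6%. The other 7 overlapped. Among the libraries, negative control replicate 1 was the highest for 33 of 42 members, and negative control replicate 3 lay between replicate 1 and both NT1_hp2 libraries for 29 members. Over all tested genes the control libraries stood in that order for 45.9%, and its part in the result was not tested. When any 1 library was left out, 0 members passed, at 0 or 1 called genes among all (3315 to 5836 genes at an unadjusted p under 0.05).

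The members covered a wide range of levels. PSMB4, a structural beta ring subunit, was the most abundant in all 4 libraries, at 130 and 111 FPKM in the negative control and 95.2 and 92.6 FPKM in NT1_hp2. PSMA7, an alpha ring subunit, came second. At the low end, 8 members did not pass the filter, namely PSMA6, PSMA8, PSMB8, PSMB9, PSMB10, PSMB11, PSMD5 and PSMD9, and 38 of the 42 tested members were at 5 FPKM or more in every library. A further 51 rows carry the same prefixes without being protein-coding, 44 of them pseudogenes, and the labels do not say how reads that match a gene and its copy were assigned.

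**Figure D1:**
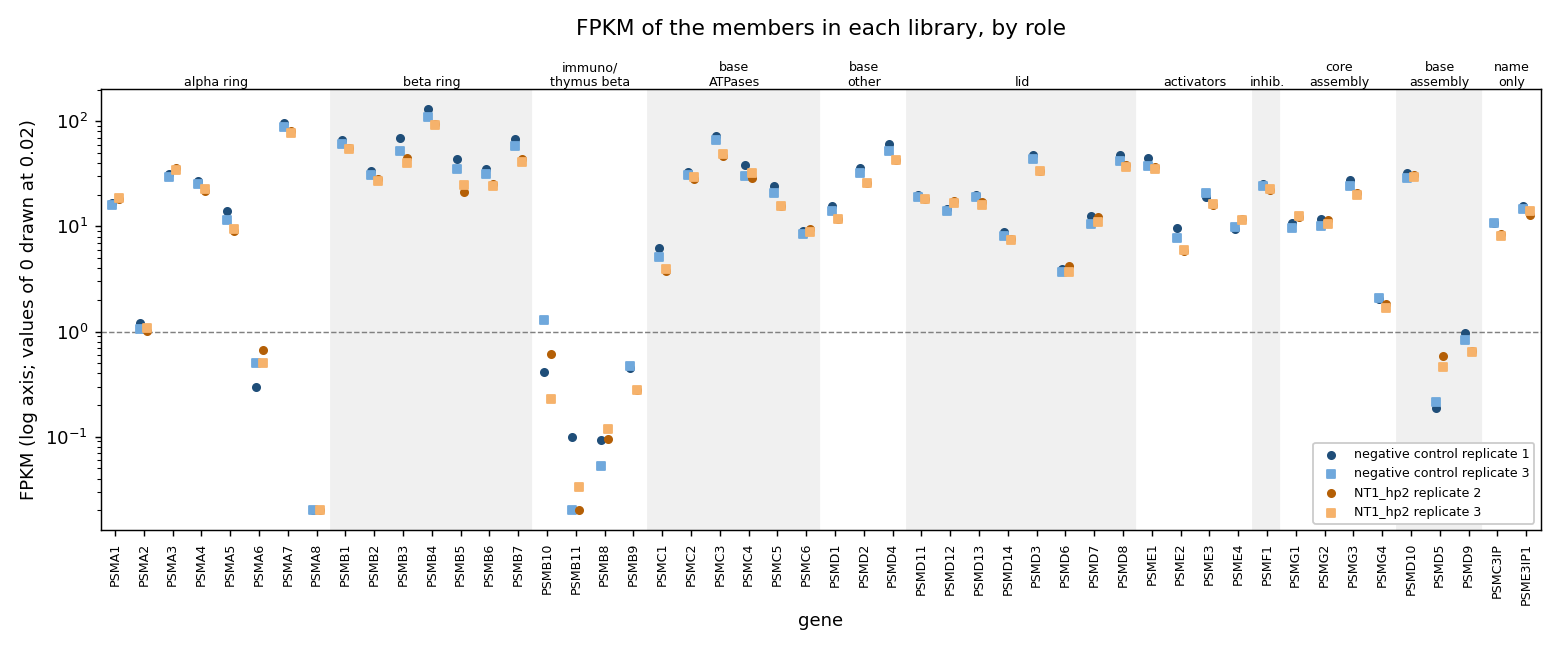
FPKM (log axis) of each member in each of the 4 libraries, grouped by role, with blue points for the negative control, orange points for NT1_hp2 and a dashed line at the filter of 1 FPKM. PSMB4 is highest at 92.6 to 130 FPKM, the immunoproteasome and thymus beta genes lie near or under the dashed line, and values of 0 are drawn at the bottom.

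The promoters of some members, but not of all, hold motifs of factors known to act on housekeeping and proteasome genes. Of these promoters 6 are shown, chosen after the values were seen, to set members that fell in the core, the ATPase ring and the lid beside members with higher values. RefSeq windows of 300 bases on GRCh38.p14, from 250 bases before to 50 bases after a transcription start, were found for 44 of the 50 members. PSMA7, PSMB1, PSMB6, PSMB7, PSMD4 and PSMG3 have none in that table. Capitals mark TGACNNNGC, the core of the antioxidant response element that binds NRF1 and NRF2 with small MAF proteins, and CCAAT, the box that binds NFY, on either strand. TGACNNNGC can overlap AP-1 and CREB sites. PSMB5, PSMC3, PSMC5 and PSMD3 are among the 9 that fell, and PSMD12 and PSMG1 were higher without passing. The windows, 5′ to 3′ on the strand of the gene, are at chr14:23035171-23035470 (minus strand) for PSMB5, chr11:47426390-47426689 (minus) for PSMC3, chr17:63827471-63827770 (plus) for PSMC5, chr17:39980557-39980856 (plus) for PSMD3, chr17:67366528-67366827 (minus) for PSMD12 and chr21:39183402-39183701 (minus) for PSMG1.
PSMB5: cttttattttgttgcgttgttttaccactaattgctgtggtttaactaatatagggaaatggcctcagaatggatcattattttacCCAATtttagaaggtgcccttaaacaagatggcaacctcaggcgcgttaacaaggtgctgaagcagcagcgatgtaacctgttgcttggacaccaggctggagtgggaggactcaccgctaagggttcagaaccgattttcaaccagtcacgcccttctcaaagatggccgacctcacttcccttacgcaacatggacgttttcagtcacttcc
PSMC3: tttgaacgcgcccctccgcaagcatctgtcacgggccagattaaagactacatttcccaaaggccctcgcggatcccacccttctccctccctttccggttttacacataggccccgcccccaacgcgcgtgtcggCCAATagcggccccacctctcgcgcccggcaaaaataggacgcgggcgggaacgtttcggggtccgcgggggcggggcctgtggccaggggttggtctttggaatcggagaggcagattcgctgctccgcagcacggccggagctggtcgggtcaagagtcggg
PSMC5: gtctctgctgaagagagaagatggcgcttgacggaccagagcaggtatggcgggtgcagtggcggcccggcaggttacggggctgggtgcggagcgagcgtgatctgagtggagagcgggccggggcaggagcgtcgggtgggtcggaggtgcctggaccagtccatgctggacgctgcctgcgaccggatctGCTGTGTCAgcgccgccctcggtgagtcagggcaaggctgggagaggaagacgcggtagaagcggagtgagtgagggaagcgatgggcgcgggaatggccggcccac
PSMD3: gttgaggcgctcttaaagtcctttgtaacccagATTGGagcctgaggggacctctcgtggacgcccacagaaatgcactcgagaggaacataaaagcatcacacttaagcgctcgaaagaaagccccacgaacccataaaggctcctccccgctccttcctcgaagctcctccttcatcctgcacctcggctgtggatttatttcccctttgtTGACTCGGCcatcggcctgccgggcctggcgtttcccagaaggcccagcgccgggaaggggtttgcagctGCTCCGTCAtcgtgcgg
PSMD12: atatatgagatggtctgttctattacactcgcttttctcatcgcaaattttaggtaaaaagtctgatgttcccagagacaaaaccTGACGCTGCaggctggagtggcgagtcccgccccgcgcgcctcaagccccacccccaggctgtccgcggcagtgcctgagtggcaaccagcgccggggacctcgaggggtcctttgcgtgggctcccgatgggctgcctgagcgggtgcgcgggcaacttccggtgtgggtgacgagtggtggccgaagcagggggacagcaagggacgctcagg
PSMG1: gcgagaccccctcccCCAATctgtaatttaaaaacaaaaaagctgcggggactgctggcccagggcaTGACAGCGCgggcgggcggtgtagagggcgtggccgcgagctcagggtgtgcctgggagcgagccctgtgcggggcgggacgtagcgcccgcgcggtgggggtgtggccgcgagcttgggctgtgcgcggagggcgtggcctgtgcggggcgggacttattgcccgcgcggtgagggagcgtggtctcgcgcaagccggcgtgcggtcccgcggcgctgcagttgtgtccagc

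The PSMB5 and PSMC3 windows shown hold a CCAAT box and no TGACNNNGC, and another PSMB5 window holds neither. The windows of PSMD3, which fell, and of PSMG1, which was higher without passing, hold both kinds. The PSMC5 window shown holds TGACNNNGC and no CCAAT. Another window of that gene begins upstream of it, at chr17:63827181-63827480, and holds CCAAT and no TGACNNNGC. The PSMC5 match shown thus lies downstream of that other transcription start. The PSMD12 window holds TGACNNNGC and no CCAAT. Of the members not shown, both windows of PSMD2, which fell, and the window of PSMA1, which was higher without passing, hold neither motif. The windows of PSMC3IP, which fell, and of PSMA3, which was higher, hold CCAAT only. The window of PSME4, which was higher, holds TGACNNNGC only. Over all member windows, TGACNNNGC stood in 15 of 55 (27.3%), beside 13.4% of all 35116 RefSeq windows of the same length. CCAAT stood in 24 of 55 (43.6%), beside 34.6% of all windows. A match describes letters and not a binding site, and some genes have more than 1 window.

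The beta ring of the core had the lowest median difference of the role groups in the deposited values. All 7 constitutive beta genes were lower in both NT1_hp2 libraries than in both control libraries, beside 34.8% of all tested genes. Of the 7 genes 3 fell, beside 8.92% of all tested genes. Their median log2 difference was -0.42, beside -0.01 over all genes. The 3 that fell were the catalytic subunits. After removal of trends with mRNA length and GC content the beta median was -0.20, above the -0.29 of the ATPases and the -0.24 of the base non-ATPase genes.

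PSMB5, the chymotrypsin-like peptidase and the target of bortezomib, lies on chromosome 14 (chr14:23016543-23035230, minus strand, GRCh38). It read 43.8 and 35.4 FPKM in the negative control and 21.5 and 24.9 FPKM in NT1_hp2. The groups were well apart, with both NT1_hp2 libraries below the lower control. PSMB5 fell by 0.74 on the log2 scale (SE 0.13, limma-trend adjusted p = 0.0376), to 0.586 of its control level, the largest difference among the tested members.

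PSMB7, the trypsin-like peptidase (chr9:124353466-124415444, minus strand), read 67.2 and 58.0 FPKM in the negative control and 44.2 and 40.7 FPKM in NT1_hp2. It fell by 0.55 (SE 0.10, limma-trend adjusted p = 0.0381). PSMB6, the caspase-like peptidase (chr17:4796144-4798503, plus strand), read 35.0 and 31.7 FPKM against 25.1 and 24.1 FPKM. It fell by 0.42 (SE 0.08, limma-trend adjusted p = 0.0383). In both genes the control libraries lay above the NT1_hp2 libraries without overlap.

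The 4 structural beta genes did not pass. PSMB3 read 69.7 and 52.5 FPKM in the negative control and 45.2 and 40.1 FPKM in NT1_hp2, a log2 difference of -0.50 with a wide SE of 0.15 (limma-trend adjusted p = 0.089). Its difference was -0.29 without negative control replicate 1 and -0.70 without negative control replicate 3. PSMB4 differed by -0.35 (adjusted p = 0.074), PSMB2 by -0.21 (adjusted p = 0.111) and PSMB1 by -0.20 (adjusted p = 0.122), all from limma-trend, and the difference of PSMB1 was 0.00 when each library was scaled to the same FPKM sum.

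The alpha ring was mixed. Of its 8 genes 6 were tested, and 0 rose and 0 fell, beside 5.0% and 8.92% of all tested genes. At an unadjusted limma-trend p under 0.05, 3 were lower and 2 higher, beside 21.2% and 15.9% of all tested genes. The median log2 difference was -0.14. With libraries scaled to the same FPKM sum it was 0.01, which is -0.15 relative to the median of all genes. PSMA5 (13.9 and 11.6 FPKM against 9.08 and 9.54 FPKM) had the lowest difference at -0.41 (SE 0.10, limma-trend adjusted p = 0.058). PSMA7 read 96.6 and 89.0 FPKM in the negative control and 80.5 and 78.2 FPKM in NT1_hp2, a difference of -0.22 (limma-trend adjusted p = 0.104). PSMA4 differed by -0.23.

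PSMA3 and PSMA1 lay on the other side. PSMA3 read 31.6 and 29.3 FPKM in the negative control and 36.2 and 34.7 FPKM in NT1_hp2, which put it 0.21 higher on the log2 scale (SE 0.07, limma-trend adjusted p = 0.096). PSMA1 read 16.7 and 15.8 FPKM against 18.1 and 18.7 FPKM, a difference of 0.17 (SE 0.06, limma-trend adjusted p = 0.133). Both were higher in each NT1_hp2 library than in each control library, and neither passed. For PSMA1, 53.2% of the principal mRNA is also annotated as exon of the readthrough gene AC018523.2 on the same strand.

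The levels of PSMA2 and PSMA6 stood far below those of the other constitutive alpha genes, both of them obligate subunits of the core. PSMA2 read 1.01 to 1.21 FPKM and PSMA6 0.299 to 0.664 FPKM over the 4 libraries. Of the principal mRNA, 52.5% in PSMA2 and 81.0% in PSMA6 lies in exons of a same-strand readthrough gene (AC010132.3 and AL121594.1), itself at or under 0.0900 FPKM. The labels do not say how reads in shared exons were assigned, and the part of this overlap in the 2 levels was not tested. PSMA6 had 69 reads over both control libraries and 107 over both NT1_hp2 libraries, a depth-scaled ratio of 1.48 (exact 95% interval of 1.08 to 2.03, which covers counting error only). PSMA8, the alpha subunit of the testis, had 0 reads in every library, which allows up to 0.126 FPKM, and of the 3 testis markers DAZL was at 0, DDX4 had 3 to 5 reads and SYCP3 6 to 16 reads per library.

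The inducible beta subunits, which replace the catalytic ones in immune cells and after interferon gamma, were hardly detected. PSMB8 had 4 and 2 reads in the control libraries against 4 and 5 with NT1_hp2, at most 0.473% of the FPKM of PSMB5, the subunit it replaces. PSMB9 had 20 and 18 reads against 12 and 12, or 1.10% to 1.47% of PSMB6, with a ratio of 0.601 (exact 95% interval 0.345 to 1.03). PSMB10 had 11 and 30 reads against 16 and 6, or 0.561% to 2.22% of PSMB7. For PSMB10, 45.3% of the mRNA is shared with the same-strand readthrough gene AC040162.1. Its groups overlapped, with the control libraries furthest apart. PSMB11, the thymus-specific subunit, had 3, 0, 0 and 1 reads, and the thymic epithelial marker FOXN1 was at most 0.116 FPKM.

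In the base of the regulatory particle, the ATPase ring had 2 of 6 genes that fell, beside 8.92% of all tested genes. Its median log2 difference was -0.31. PSMC3 (chr11:47418769-47426473, minus strand) read 72.4 and 66.4 FPKM in the negative control and 47.2 and 48.5 FPKM in NT1_hp2. It fell by 0.53 (SE 0.07, limma-trend adjusted p = 0.034), the smallest adjusted p among the members. PSMC5 (chr17:63827152-63832026, plus strand) read 24.3 and 20.8 FPKM against 15.6 and 15.6 FPKM. It fell by 0.50 (SE 0.09, limma-trend adjusted p = 0.0381).

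Both ATPase genes had tightly paired NT1_hp2 libraries well under the controls. The kit does not mark strand, and 27.2% of the PSMC5 mRNA lies opposite exons of FTSJ3, which read 15.0 and 12.5 FPKM in the negative control and 9.92 and 9.19 FPKM in NT1_hp2, so the part of FTSJ3 reads in the PSMC5 values was not tested.

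The other 4 ATPase genes did not pass. PSMC1, the lowest of the ring, read 6.23 and 5.15 FPKM in the negative control and 3.78 and 3.92 FPKM in NT1_hp2, a difference of -0.46 just outside the threshold (limma-trend adjusted p = 0.052). Its mRNA lies opposite NRDE2 exons over 82.1% of its length, so its reads cannot be separated from those of NRDE2. The pseudogene PSMC1P1 was at 3.999 and 2.23 FPKM against 1.45 and 1.49 FPKM. PSMC2 differed by -0.13, PSMC4 by -0.16 and PSMC6 by 0.07, with adjusted p of 0.225, 0.470 and 0.523 in limma-trend. With libraries scaled to the same FPKM sum, PSMC2 and PSMC4 were at 0.07 and 0.04, both under the 0.16 of all genes.

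The non-ATPase subunits of the base include the scaffold PSMD2 and the ubiquitin receptor PSMD4, and both fell. PSMD2 (chr3:184298709-184309054, plus strand) read 36.0 and 32.5 FPKM in the negative control and 26.2 and 25.7 FPKM in NT1_hp2, and fell by 0.39 (SE 0.07, limma-trend adjusted p = 0.0416). PSMD4 (chr1:151254703-151267479, plus strand) read 61.0 and 52.6 FPKM against 42.4 and 42.7 FPKM, and fell by 0.40 (SE 0.09, limma-trend adjusted p = 0.0495). The groups did not overlap in either gene. PSMD4 passed narrowly, and its adjusted p was 0.0534 with median-of-ratios scaling. The larger scaffold gene PSMD1, at 15.8 and 14.0 FPKM against 11.8 and 11.7 FPKM, differed by -0.31 and did not pass (limma-trend adjusted p = 0.062).

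The lid held genes with values on either side of the control. Of 8 lid genes 1 fell, beside 8.92% of all tested genes, and their median log2 difference was -0.11. With libraries scaled to the same FPKM sum it was 0.08, or -0.08 relative to all genes. PSMD3 (chr17:39980797-39997960, plus strand), a scaffold of the lid, read 47.5 and 43.6 FPKM in the negative control and 33.7 and 33.9 FPKM in NT1_hp2. It fell by 0.42 (SE 0.07, limma-trend adjusted p = 0.0362), and its groups were far apart. PSMD12 went the other way without passing, at 14.6 and 14.1 FPKM against 17.5 and 16.6 FPKM, a difference of 0.24 (SE 0.06, limma-trend adjusted p = 0.069).

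PSMD14, the deubiquitinase that cuts ubiquitin chains off the substrate, read 8.76 and 8.12 FPKM in the negative control and 7.64 and 7.45 FPKM in NT1_hp2, and its difference of -0.14 did not pass (limma-trend adjusted p = 0.223). PSMD7, its inactive partner, overlapped between the groups, with 12.5 and 10.5 FPKM against 12.3 and 11.1 FPKM. Of the PSMD7 mRNA, 50.4% lies opposite exons of AC009120.2, at 2.53 and 3.19 FPKM against 3.35 and 3.57 FPKM. The part of those reads in the PSMD7 values was not tested. PSMD6, the lowest lid gene, also overlapped between the groups, at 3.66 to 4.21 FPKM in all libraries. PSMD8, PSMD13 and PSMD11 differed by -0.24, -0.21 and -0.08, and none of the 3 passed. Under scaling to the same FPKM sum, PSMD11 was at 0.12 and PSMD14 at 0.04, under the 0.16 of all genes.

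**Figure D2:**
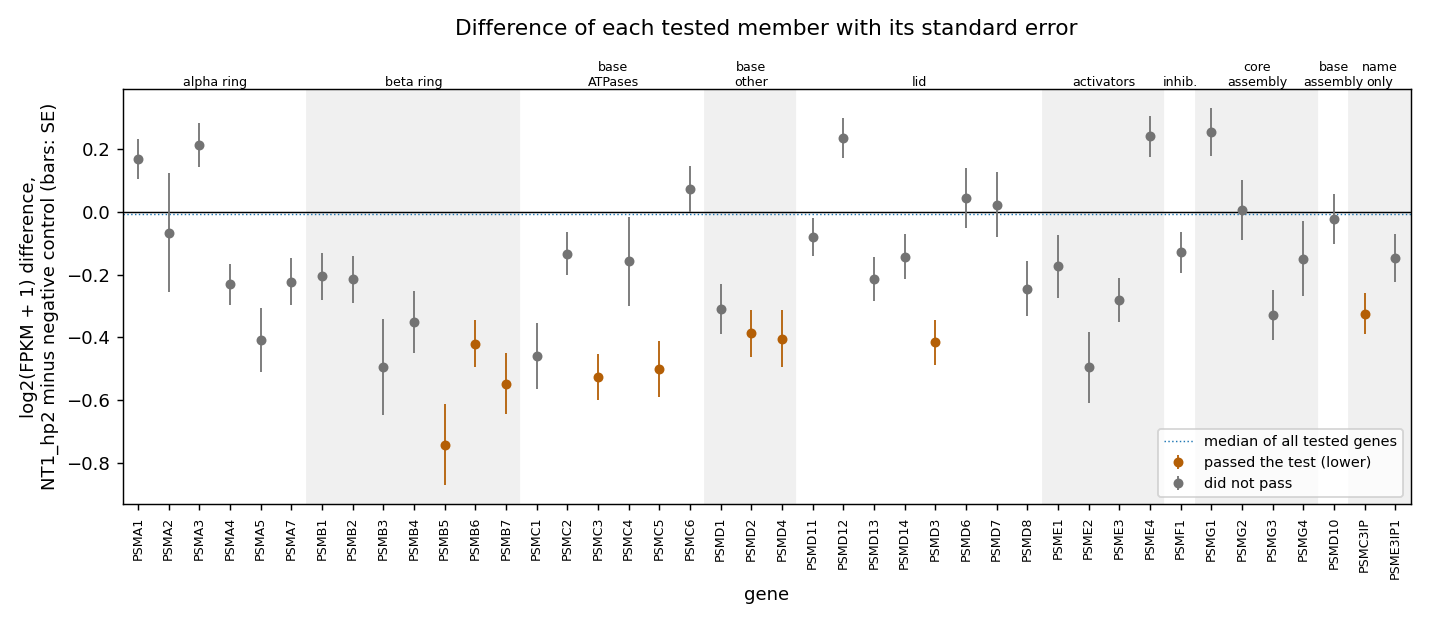
Difference of each of the 42 tested members on the log2(FPKM + 1) scale, NT1_hp2 minus negative control, with its limma-trend standard error, by role; orange marks the 9 members that passed the test and the dotted line the median of all tested genes. All 7 beta ring genes lie below 0, with PSMB5 lowest at -0.74, and PSMG1 is highest at 0.26 without passing.

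None of the 4 activator genes passed. PSME1 and PSME2 encode the interferon-responsive cap of the core. PSME1 read 44.5 and 37.4 FPKM in the negative control and 36.9 and 35.2 FPKM in NT1_hp2, a difference of -0.17 (limma-trend adjusted p = 0.275). That difference was -0.05 without negative control replicate 1 and -0.30 without negative control replicate 3, and 0.03 with libraries scaled to the same FPKM sum, where all genes had 0.16. PSME2 read 9.71 and 7.80 FPKM against 5.85 and 5.92 FPKM, a difference of -0.50 that missed the threshold by little (SE 0.11, limma-trend adjusted p = 0.0503). PSME2 was thus 21.8% and 20.9% of PSME1 in the control libraries and 15.8% and 16.8% in the NT1_hp2 libraries.

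The nuclear activators differed in direction. PSME3, the subunit of the nuclear cap, read 19.1 and 20.8 FPKM in the negative control and 15.98 and 16.5 FPKM in NT1_hp2, a difference of -0.28 (limma-trend adjusted p = 0.061). PSME4, a large single-chain activator known from sperm cells and DNA repair, read 9.49 and 9.93 FPKM against 11.8 and 11.5 FPKM, a difference of 0.24 (SE 0.07, limma-trend adjusted p = 0.067). Neither passed, but the level of PSME4 relative to PSME3 was 49.8% and 47.7% in the control libraries and 74.0% and 69.8% in the NT1_hp2 libraries. These ratios were not tested. PSMF1, an inhibitor that binds the core, read 25.4 and 24.1 FPKM against 22.2 and 22.9 FPKM, a difference of -0.13 (limma-trend adjusted p = 0.213), or 0.07 with libraries scaled to the same FPKM sum, beside 0.16 for all genes.

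The core assembly chaperones, which guide the alpha ring, held no gene that passed. PSMG1 read 10.8 and 9.72 FPKM in the negative control and 12.3 and 12.5 FPKM in NT1_hp2, the highest difference of all tested members at 0.26 (SE 0.08, limma-trend adjusted p = 0.082). PSMG2, its dimer partner, read 11.9 and 10.2 FPKM against 11.5 and 10.6 FPKM, a difference of 0.01 with overlapping groups. Of the PSMG2 mRNA, 17.3% lies opposite exons of other genes, whose part in its values was not tested. PSMG3 read 27.4 and 24.2 FPKM against 20.7 and 19.98 FPKM, a difference of -0.33 (limma-trend adjusted p = 0.058).

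The remaining chaperone of the core, PSMG4, which pairs with PSMG3, read 2.03 and 2.06 FPKM in the negative control and 1.84 and 1.66 FPKM in NT1_hp2, with a difference of -0.15 (limma-trend adjusted p = 0.418). The median of these 4 genes was -0.07, and 0.09 with libraries scaled to the same FPKM sum, or -0.07 relative to all genes. POMP, the further core assembly factor outside the PSM symbols, read 49.8 ± 5.05 FPKM in the negative control and 43.7 ± 3.59 FPKM in NT1_hp2 (SD, n = 2), a difference of -0.18 (limma-trend adjusted p = 0.262), or 0.02 under that scaling.

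Among the base assembly chaperones, PSMD10 read 32.5 and 29.03 FPKM in the negative control and 31.0 and 29.5 FPKM in NT1_hp2. Its groups overlapped and its difference was -0.02, or 0.18 with libraries scaled to the same FPKM sum, beside 0.16 for all genes. PSMD9 and PSMD5 were under the filter. PSMD5 had 12 and 12 reads in the control libraries against 37 and 29 with NT1_hp2, a depth-scaled ratio of 2.62 (exact 95% interval 1.62 to 4.37, counting error only). PSMD9 had 122 and 92 reads against 81 and 79, a ratio of 0.712 (exact 95% interval 0.576 to 0.878), and 43.8% of its mRNA is shared with other genes on its strand. Neither counting interval includes 1, and neither covers the spread between replicates.

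Of the 2 genes with the prefix only, PSMC3IP (chr17:42572315-42577831, minus strand) fell, from 10.7 and 10.7 FPKM in the negative control to 8.56 and 8.13 FPKM in NT1_hp2. Its difference was -0.32 (SE 0.07, limma-trend adjusted p = 0.0438), and 54.4% of its mRNA lies opposite exons of MLX, which read 11.2 and 10.0 FPKM against 8.66 and 8.25 FPKM. PSME3IP1 differed by -0.15, or 0.05 with libraries scaled to the same FPKM sum, and did not pass.

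The role groups can be seen as shares of the summed FPKM of the 48 proteasome genes. The beta ring, the ATPases and the base non-ATPase genes had smaller shares in both NT1_hp2 libraries. The alpha ring, the lid, the activators, the inhibitor and both assembly groups had larger ones. The sum was 1300 and 1151 FPKM in the negative control and 1018 and 1000.2 FPKM in NT1_hp2. The beta ring held 34.3% and 33.0% of the sum of the 48 in the control libraries and 31.0% and 30.4% in the NT1_hp2 libraries. The alpha ring held 14.4% and 15.0% against 16.5% and 16.5%, although its own sum was lower, at 187 and 173 FPKM against 168 and 165 FPKM. The core assembly genes held 4.01% and 4.01% against 4.55% and 4.48%, and the lid 13.4% and 13.9% against 14.7% and 14.4%. The ATPases held 14.1% and 14.0% against 13.1% and 13.9%, and the base non-ATPase genes 8.68% and 8.60% against 7.90% and 8.01%. The activators held 6.37% and 6.60% against 6.94% and 6.91%, and the inhibitor 1.95% and 2.09% against 2.18% and 2.29%. The base assembly genes held 2.59% and 2.61% against 3.17% and 3.06%. Shares do not depend on the scaling of a library, and these differences were not tested.

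**Figure D3:**
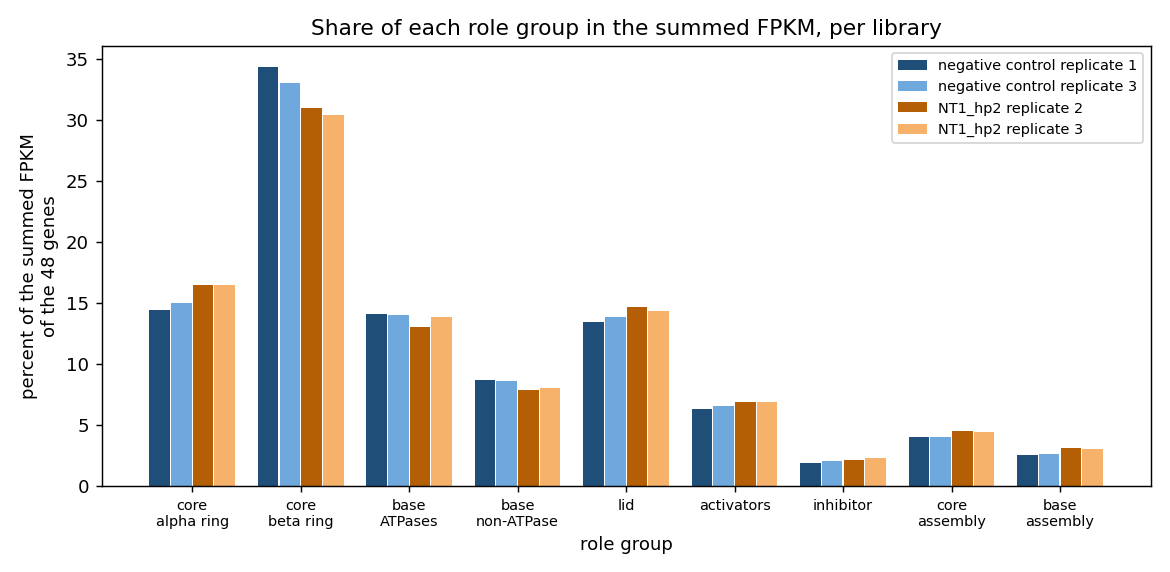
Percent of the summed FPKM of the 48 proteasome genes held by each role group, 1 bar per library; the immunoproteasome and thymus genes, at most 0.157%, are left out. The beta ring bars step down from 34.3% and 33.0% in the negative control to 31.0% and 30.4% in NT1_hp2, and the alpha ring bars step up from 14.4% and 15.0% to 16.5% in both.

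The factors that control proteasome genes, and the proteins that work with the proteasome, were read from lists outside the PSM symbols. Of 13 control genes 1 rose and 1 fell, beside 5.0% and 8.92% of all tested genes, with a median log2 difference of 0.07. NFE2L1, which encodes NRF1, the main inducer of proteasome genes, fell from 43.4 and 41.3 FPKM to 34.0 and 34.0 FPKM, by 0.31 (SE 0.06, limma-trend adjusted p = 0.0438). With libraries scaled to the same FPKM sum its difference was -0.11 and did not pass (limma-trend adjusted p = 0.174), beside 0.16 for all genes. NFE2L2, which encodes NRF2, the regulator of antioxidant genes, rose from 12.9 and 12.4 FPKM to 17.6 and 15.9 FPKM, a difference of 0.38 (SE 0.07, limma-trend adjusted p = 0.0422). The protease gene DDI2, which activates NRF1, was at 6.01 ± 0.363 and 6.85 ± 0.234 FPKM (SD, n = 2) and did not pass (limma-trend adjusted p = 0.203).

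Among the 12 proteasome partners 1 rose and 0 fell, beside 5.0% and 8.92% of all tested genes, with a median of 0.07. UCHL5, a deubiquitinase bound to the regulatory particle, rose from 8.38 and 9.20 FPKM to 11.9 and 12.4 FPKM, a difference of 0.43 (SE 0.07, limma-trend adjusted p = 0.0371), and was at 0.15 without passing after removal of mRNA length and GC trends (limma-trend adjusted p = 0.149). USP14, the other bound deubiquitinase, was at 15.8 and 16.5 FPKM against 22.2 and 19.6 FPKM, higher without overlap but not past the threshold (limma-trend adjusted p = 0.0533). The ubiquitin receptor ADRM1 and the small lid subunit SEM1 were at differences of -0.34 and -0.43 with adjusted p of 0.155 and 0.117 in limma-trend, and neither passed.

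Of 14 tested genes of ubiquitin and its shuttles 1 rose and 0 fell, beside 5.0% and 8.92% of all tested genes. Their median was -0.10. The 1 that rose was UBA6, a ubiquitin-activating enzyme. UBA6 went from 5.02 and 5.28 FPKM to 8.16 and 7.07 FPKM, a difference of 0.48 (SE 0.09, limma-trend adjusted p = 0.0408). It did not pass with the exon length trend removed (0.38, limma-trend adjusted p = 0.0504) or with the mRNA length and GC trends removed (0.17, adjusted p = 0.159). Of 13 tested antigen processing genes, which act downstream of the immunoproteasome, 0 rose and 3 fell, with a median of -0.07, where 8.92% of all tested genes fell. These were the peptide transporter subunit TAP1 (-0.33, limma-trend adjusted p = 0.0474), its partner tapasin, TAPBP (-0.37, adjusted p = 0.0396), and the class I gene HLA-C (-0.43, adjusted p = 0.0486). None of the 3 passed with libraries scaled to the same FPKM sum (-0.15, -0.18 and -0.23) or with mRNA length and GC trends removed (-0.11, -0.09 and -0.12). HLA-C also missed the threshold with median-of-ratios scaling, and TAP1 and HLA-C without robust shrinkage. B2M overlapped between the groups at 35.5 to 40.1 FPKM.

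Length and base composition moved with the difference over all protein-coding genes. With the genes in 4 equal bins of mRNA length, shortest first, the median log2 difference went from -0.19 over -0.10 and 0.00 to 0.11. In 4 bins of GC content, lowest first, it went from 0.19 over 0.06 and -0.12 to -0.30. The tested members had a median mRNA length of 1580 bases, beside 3198 bases over tested protein-coding genes, and a median GC content of 49.2%, beside 49.1%. The 9 that fell had 1416 bases and 53.1% GC at the median, and the 5 with the highest differences had 41.5% GC.

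After removal of smooth trends with mRNA length and GC content, an alternative added after seeing the data, 12 members fell (28.6%, background 12.4%) and 3 rose (7.14%, background 10.7%). PSMB6, PSMD3 and PSMC3IP no longer passed in that fit, and PSMA1, PSMA3 and PSMG1 rose. PSMA4, PSMA5, PSMB2, PSMC1, PSMC2 and PSMD1, which had not passed as deposited, fell in that fit. PSMA5 had the lowest difference of the members there, at -0.62 (limma-trend adjusted p = 0.00186), and PSMB5 was at -0.57. PSMD12 was at 0.02 there, beside 0.24 as deposited. In a fit of protein-coding genes alone, 19 members fell (45.2%, background 24.2%) and 3 rose (7.14%, background 14.6%), namely PSMD12, PSME4 and PSMG1.

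Across the 12 fits that used all 4 libraries, PSMB5, PSMB7, PSMC3 and PSMC5 fell in 11, all but the fit without a filter, in which 0 of 36608 genes passed (6778 at an unadjusted p under 0.05). PSMB6, PSMD2 and PSMD3 fell in 10, PSMD4 in 8 and PSMC3IP in 7. In the other direction, PSMG1 rose in 6 of the 12 fits, PSMD12 in 5, and PSMA1, PSMA3 and PSME4 in 4. In these fits the 5 genes never fell, and the 9 above never rose. With libraries scaled to the same FPKM sum, 78.3% of the 4200 called genes were higher, beside 35.9% of 2278 as deposited. The same percentage was 57.8% of 5787 with limma-voom on recovered reads and 46.4% of 2804 after the length and GC correction.

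**Figure D4:**
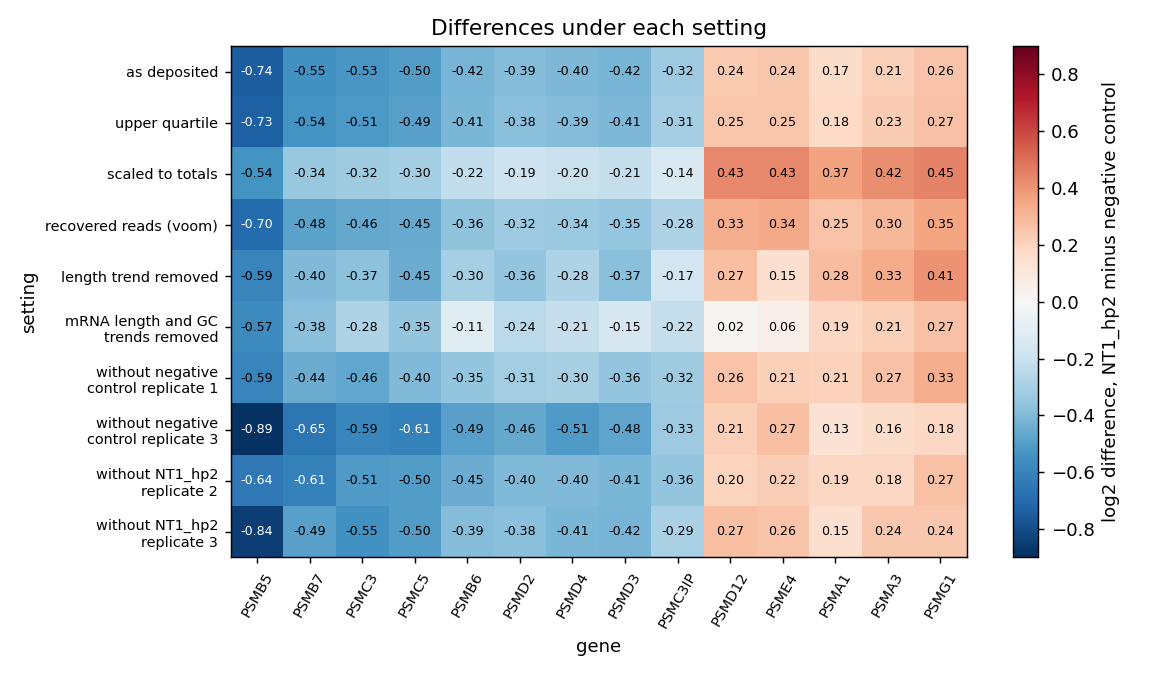
Log2 difference, NT1_hp2 minus negative control, of the 9 members that fell and the 5 that were higher in both NT1_hp2 libraries, under the deposited scaling, 5 other settings and with each library left out. PSMB5 runs from -0.54 to -0.89, and none of the 14 genes changes sign in the settings shown.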

How the data were processed

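RNA levels were measured in 4 HEK293A libraries, 2 per group. Groups follow the transformation label. The authors deposited 1 value per gene and library in a unit the files do not name. It was taken as FPKM, since multiplied by the GENCODE 29 exon length 100% of the deposited values were whole reads within 0.01. The build is GRCh38.p12, per the submitters' processing notes. How reads were aligned, counted and normalized is not given in the sources at hand. Per the labels' protocols, 1 µg of RNA entered a NEBNext Ultra kit, which does not mark strand.

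Genes at 1 FPKM or more in at least 2 libraries were put on the log2(FPKM + 1) scale, on which changes of low genes look smaller, and compared with limma 3.58.1 (trend and robust) in R 4.3.3. Benjamini-Hochberg adjustment ran over all tested genes. The replicate pairs differed beyond sampling noise (chi-square per degree of freedom of 6.22 and 2.83), and each library counts as 1 replicate. Trends with length and GC content were fitted with mgcv 1.9.3 over principal mRNAs. Read totals leave out the EGFP row, which has no annotated length. Intervals are exact binomial. The fit was tested on simulated data. Members, gene lists and tests were chosen with earlier results of these data known. Full values were given for members that passed, catalytic, inducible, activator, inhibitor and assembly genes, and the highest and lowest gene of each role.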

Additional observations from a re-analysis of the deposited data

How the results depend on the processing

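No paired analysis was possible because the groups share only replicate number 3. Every alternative except the length and GC correction was planned. With 1 library left out, which assumes that the lone library varies like the other group, 0 to 1 genes passed in all, 0 members fell or rose, and the role medians ranged from -0.46 to -0.22 for ATPases, -0.20 to -0.09 for the alpha ring, -0.49 to -0.29 for the beta ring and -0.12 to -0.02 for core assembly. Of the 42 differences 14 moved over 1.5 times or changed sign, 0 of them in members that had passed. Members fell and rose in these numbers, with those of all tested genes in brackets: 16 and 5 with limma-voom on recovered reads (14.9% and 20.4%, 5787 genes), 6 and 5 with libraries scaled to the same FPKM sum (910 and 3290 of 16447 genes, 4200 in all), 18 and 3 at 5 FPKM or more in all libraries (28.0% and 15.7%), 19 and 3 among protein-coding genes alone (24.2% and 14.6%, 4716 genes), 10 and 4 with the exon length trend removed (9.27% and 6.66%), 12 and 3 with the mRNA length and GC trends removed (12.4% and 10.7%), 0 and 0 without a filter (0 genes). Upper-quartile and median-of-ratios scaling, a pseudocount of 0.1 and no robust shrinkage gave 8 to 11 that fell (7.68% to 9.57%) and 0 that rose (4.22% to 5.54%).

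Under scaling to the same FPKM sum, role medians were 0.0133 for the alpha ring, -0.22 for the beta ring, -0.12 for ATPases, -0.19 for the base non-ATPase genes, 0.0803 for the lid, -0.0266 for activators, 0.0707 for the inhibitor, 0.0921 for core assembly, 0.18 for base assembly, -0.0442 for the prefix-only genes and -0.0152 for all members, beside 0.16 for all genes. Reversed genes were PSMA2 (0.0434), PSMB1 (0.0004), PSMC2 (0.0679), PSMC4 (0.0444), PSMD11 (0.12), PSMD14 (0.0425), PSME1 (0.0301), PSMF1 (0.0707), PSMD10 (0.18), PSME3IP1 (0.0474) and POMP (0.022). With limma-voom, medians were -0.0454 for the lid, -0.16 for activators, -0.0575 for the inhibitor and -0.18 for the prefix-only genes, and PSMD10 was at 0.0525. All genes had a median of 0.07 in that fit. Relative to it the lid was at -0.11 and the activators at -0.23, beside -0.10 and -0.22 relative to all genes as deposited. At 5 FPKM or more, medians were -0.22 for the alpha ring and -0.16 for ATPases, over fewer genes, beside -0.05 for all genes. With the exon length trend removed, medians were -0.0528 for the alpha ring, -0.28 for the base non-ATPase genes, -0.13 for activators, 0.13 for base assembly and -0.13 for the prefix-only genes, with PSMD6 at -0.0219 and PSMD10 at 0.13. With mRNA length and GC trends removed, medians were -0.0644 for the alpha ring, -0.20 for the beta ring, -0.24 for the base non-ATPase genes, -0.0173 for the lid, -0.0249 for activators, 0.15 for core assembly and -0.19 for the prefix-only genes, and reversed genes were PSMA7 (0.02), PSMC4 (0.0712), PSMC6 (-0.11), PSMD8 (0.0283), PSME1 (0.0454), PSMG4 (0.15), ADRM1 (0.0299) and DDI2 (-0.0289). Leaving out 1 library in turn changed the sign of PSMC4 (-0.339 to 0.0236), PSMD10 (-0.1002 to 0.0565), PSMD6 (-0.0277 to 0.1156), PSMD7 (-0.0902 to 0.1378) and PSMG2 (-0.097 to 0.1108). The cause of these differences was not tested. The depth leaves members under about 0.2 FPKM at a few reads.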
